A study of Homo sapiens with 6 samples.

Results

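Small nucleolar RNA (snoRNA) host genes were taken from the count table of HCT116 cells as the rows whose symbol is SNHG followed by digits, together with GAS5, ZFAS1 and EPB41L4A-AS1. The rule gave 31 genes of the 62710 in the table. HCT116 is a human colon cancer cell line, and 6 RNA libraries of it were compared. The 3 sh-NC libraries came from cells that carried a scrambled control shRNA, and the 3 sh-IGF2BP3 libraries came from cells that carried an shRNA against IGF2BP3, an RNA-binding protein that binds and stabilizes many mRNAs. Both lines were made with lentivirus and puromycin selection, and a single shRNA sequence against IGF2BP3 was used, so an effect of that sequence on other transcripts and an effect of IGF2BP3 cannot be told apart. The comparison of sh-IGF2BP3 with sh-NC asks which RNAs differ in level when IGF2BP3 is reduced.

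A snoRNA host gene is transcribed and spliced like an mRNA, and its snoRNAs are cut out of the introns. C/D box snoRNAs guide the 2′-O-methylation of ribosomal RNA and H/ACA box snoRNAs guide its pseudouridylation, while scaRNAs guide the same changes in spliceosomal RNAs. In many of the noncoding hosts the spliced exons hold no long reading frame and are degraded by nonsense-mediated decay when they are translated. Several hosts, GAS5 among them, begin like the mRNAs of ribosomal proteins, with a C and a run of pyrimidines at the 5′ end (the 5′ terminal oligopyrimidine, or TOP, motif), which ties their translation to growth signals through mTOR.

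The first bases of the hosts are shown because a TOP start is known from the ribosomal protein genes. A TOP start was counted where the annotated RefSeq start (GRCh38.p14) is a C followed by at least 4 bases that are C or T, on the strand of the gene. Of 27 members with a RefSeq window, 7 had such a start (25.9%), as had 47 of 78 starts of ribosomal protein genes (60.3%), 7 of 32 starts of protein-coding snoRNA hosts (21.9%) and 1429 of all 35116 RefSeq starts (4.07%). The 7 were SNHG4, SNHG5, SNHG12, SNHG18, SNHG19, SNHG32 and ZFAS1, and GAS5 did not meet the definition at its annotated RefSeq start. In each line below, 10 bases before the start and 20 bases from it are printed 5′ to 3′, and the capitals mark the unbroken run of C and T that begins with a C at the start. The first 6 lines are the tested hosts that meet the definition, SNHG1, SNHG7 and SNHG26 have a C with a shorter run, and SNHG16 has no C at its start. The windows lie at chr6:85678714-85678743 on the minus strand for SNHG5, chr1:28581854-28581883 minus for SNHG12, chr6:31834906-31834935 plus for SNHG32, chr20:49278632-49278661 plus for ZFAS1, chr16:2155339-2155368 minus for SNHG19, chr5:139274091-139274120 plus for SNHG4, chr11:62855866-62855895 minus for SNHG1, chr9:136728165-136728194 minus for SNHG7, chr7:22854230-22854259 plus for SNHG26 and chr17:76557754-76557783 plus for SNHG16.
SNHG5: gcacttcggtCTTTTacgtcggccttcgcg
SNHG12: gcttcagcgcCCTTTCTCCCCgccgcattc
SNHG32: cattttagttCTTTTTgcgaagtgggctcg
ZFAS1: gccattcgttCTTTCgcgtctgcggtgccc
SNHG19: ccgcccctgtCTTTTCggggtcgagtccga
SNHG4: ctcccggctgCCCTTTCCCCTCCggcctct
SNHG1: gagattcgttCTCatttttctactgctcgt
SNHG7: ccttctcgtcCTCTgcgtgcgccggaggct
SNHG26: taaacttgatCTCCgcagtgccctcccttt
SNHG16: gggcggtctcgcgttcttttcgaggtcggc
SNHG6, SNHG15, SNHG9 and SNHG25 had no window. A start 1 or more bases away from the annotated one would give another letter, so a start without the run says only that these letters are not at this position.

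The depth was 16146718 to 23576469 counts on genes per library. The members together took 0.140%, 0.129% and 0.138% of the counts in sh-NC 1, 2 and 3, against 0.139%, 0.170% and 0.137% in sh-IGF2BP3 1, 2 and 3, which gives 0.136% ± 0.00577 in sh-NC and 0.149% ± 0.0186 in sh-IGF2BP3 (SD, n = 3 each). The library sh-IGF2BP3 2 lay above the other 5, and the groups overlapped. The labels do not say that the 3 libraries of a group are separate cultures, so every p-value measures only the spread between these libraries, which may be technical. IGF2BP3 itself was at 90.3, 84.1 and 70.3 CPM (counts scaled to the library total, normalized with TMM) in sh-NC and at 60.2, 52.3 and 55.8 CPM in sh-IGF2BP3, a log2 fold change of −0.54 (SE 0.181, edgeR adjusted p = 0.126). The groups did not overlap for IGF2BP3, the fold lay under 1.5, and the log2 fold change was −0.26 after removal of a trend with GC content that is described further on. The study also reported the knockdown in HCT116 by qPCR and by Western blot. Of 8 colon epithelial markers 7 were above 1 CPM, among them EPCAM, CDH1 and KRT8, and VIL1 was at or near 0. The leukocyte genes summed to 0.620 to 1.02 CPM in sh-NC and 0.654 to 1.02 CPM in sh-IGF2BP3. Of 6 fibroblast genes COL1A1 alone was above 1 CPM, with COL1A2 and LUM at 0, and the list summed to 28.5 to 48.3 CPM in sh-NC and 30.04 to 59.8 CPM in sh-IGF2BP3. The 3 endothelial genes summed to 1.98 to 4.04 CPM in sh-NC and 1.24 to 3.72 CPM in sh-IGF2BP3.

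The hosts differed widely in level. Levels per length are given as FPKM (a count relative to gene length and library total). SNHG1 (chromosome 11, 62851978 to 62855953, minus strand, GRCh38), the host of SNORD22, SNORD25 to SNORD28 and SNORD30, was the highest in the deposited values. It was at 49.4 ± 3.66 FPKM in sh-NC (SD, n = 3). GAS5 (chromosome 1, 173858559 to 173868882, minus), which is known for its accumulation in growth-arrested cells, followed with 38.2 ± 2.63 FPKM. SNHG16 (chromosome 17, 76557727 to 76670985, plus), which hosts the SNORD1 family, was at 32.2 ± 1.03 FPKM, SNHG29 (chromosome 17, 16438767 to 16480249, plus) at 30.6 ± 2.84 FPKM and SNHG3 (chromosome 1, 28505980 to 28510892, plus) at 23.1 ± 1.55 FPKM. SNHG16 and SNHG29, neighbours in this order, differed by less than the SD of SNHG29. SNHG6 with 18.8 ± 0.813 FPKM, SNHG32 with 17.8 ± 3.68 FPKM and SNHG4 with 17.2 ± 2.59 FPKM also did not differ beyond their spread. Then came a gap to SNHG12 with 7.52 ± 1.97 FPKM, and SNHG5 was in place 21 of 31 with 1.09 ± 0.243 FPKM. The median ribosomal protein gene was at 82.1 FPKM in sh-NC, and 57 of 79 ribosomal protein genes were above SNHG1.

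The order depends on the gene length behind it. The length that the deposited FPKM values imply was close to the exonic length in GENCODE 29 for SNHG1 and SNHG3, but it was 7.17 times that length for SNHG8, 4.49 times for SNHG5, 3.71 times for ZFAS1, 2.84 times for SNHG17 and 2.38 times for SNHG29. With GENCODE 29 lengths, SNHG29 was the highest host with 72.9 FPKM in sh-NC, ahead of SNHG1 with 52.3 and GAS5 with 51.9. SNHG8 moved from place 17 to place 9, ZFAS1 from 15 to 10 and SNHG5 from 21 to 18. As a divisor, each gene's length is the same in all 6 libraries and does not touch the comparison between the groups. Which exons were counted can touch it, and these are not known for the hosts with a longer implied length. Of the members' counts, SNHG29 took 20.4%, the top 4 (SNHG29, SNHG1, GAS5 and SNHG16) 60.5% and the top 10 85.8%.

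**Figure D1:**
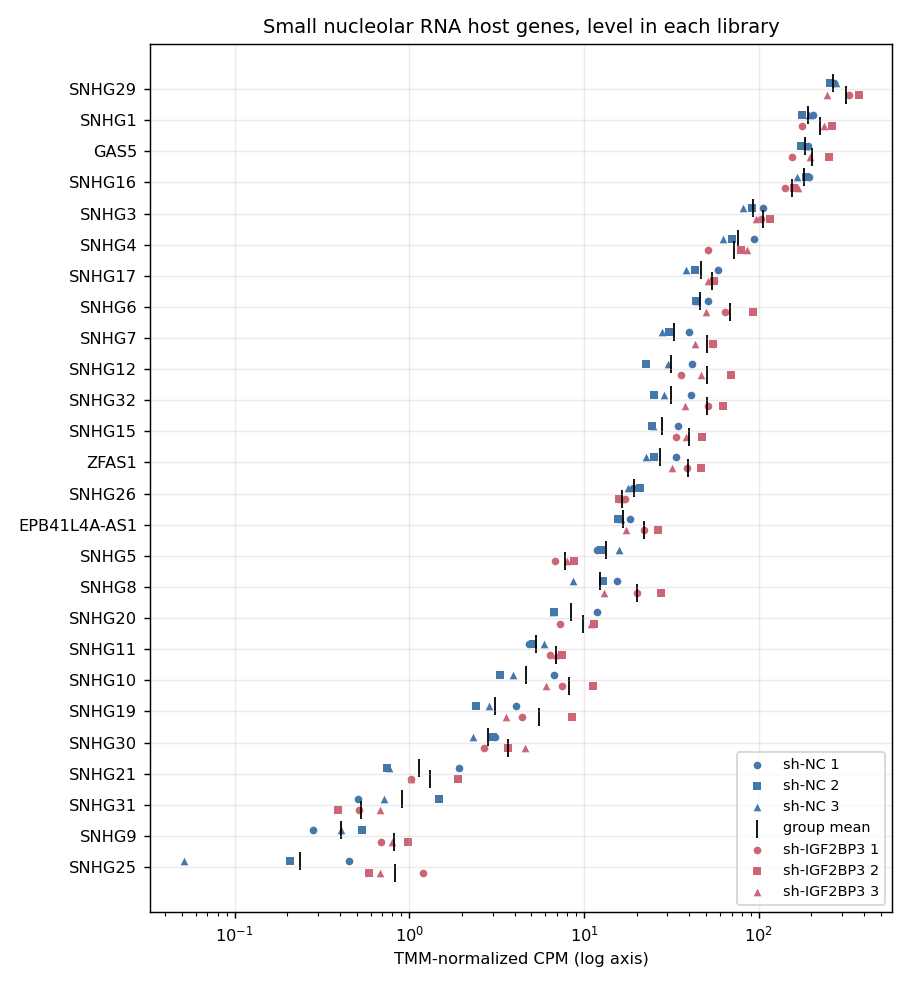
Level of each of the 26 tested snoRNA host genes in the 6 libraries, as TMM-normalized CPM on a log axis, with sh-NC in blue, sh-IGF2BP3 in red, a marker shape for each replicate and a black tick for the group mean. SNHG29, SNHG1, GAS5 and SNHG16 lie above 100 CPM in every library, and most genes have overlapping groups.

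Of the 31 members, 26 had enough counts to be tested, with 56 (SNHG25) to 32126 (SNHG29) counts over the 6 libraries. SNHG22 with 67 counts, SNHG14 with 47, SNHG28 with 8, SNHG27 with 1 and SNHG18 with 0 did not pass the filter on low counts. SNHG14, the host of the imprinted SNORD115 and SNORD116 clusters, held 84 of the 144 annotated snoRNA or scaRNA rows that lie inside the members. Most tested hosts were higher on average in sh-IGF2BP3, and none passed both thresholds of the study, 1.5 for the fold change and 0.05 for the adjusted p (edgeR's quasi-likelihood test, Benjamini-Hochberg adjustment over 16753 genes). The same test called 0% of all genes. The log2 fold change was above 0 for 21 of 26 members and for 8208 of all 16753 genes, with a median of 0.38 for the members and −0.01 for all genes. At an unadjusted p under 0.05, 10 of the 26 were higher (38.5%, against 13.6% of all genes) and 1 was lower (3.85%, against 8.54%). The 10 were SNHG6, SNHG7, SNHG8, SNHG10, SNHG12, SNHG15, SNHG19, SNHG25, SNHG32 and ZFAS1, and the lower one was SNHG5. This count rests on single libraries: without sh-IGF2BP3 2 it was 2 of 26 (7.69%, against 7.53% of all genes), without sh-NC 2 it was 3 of 27 (11.1%, against 7.02%) and without sh-NC 3 it was 4 of 27 (14.8%, against 7.58%). DESeq2 called 1 member, SNHG5, of the 22 to which it gave an adjusted p, and 5.34% of all genes. In these bulk libraries, fewer cells of a type and less RNA per cell cannot be told apart.

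Without sh-NC 1, the sh-NC library in which the members were highest, edgeR called 9 members, beside 15.7% of all genes. The 9 were ZFAS1, SNHG12, SNHG32, SNHG15, SNHG7, SNHG10, SNHG25 and SNHG8, higher in sh-IGF2BP3, and SNHG5, lower. Without any other library it called 0 members.

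SNHG5 (ENSG00000203875, chromosome 6, 85650491 to 85678932, minus), which hosts SNORD50B and has a TOP start, was the host with the clearest difference downward. It was at 11.8, 12.4 and 15.7 CPM in sh-NC 1, 2 and 3, against 6.80, 8.70 and 7.95 CPM in sh-IGF2BP3 1, 2 and 3. All 3 sh-IGF2BP3 libraries lay below all 3 sh-NC libraries. The mean went from 13.3 ± 2.12 to 7.82 ± 0.954 CPM (SD, n = 3 each), 0.587 of the sh-NC level, with a log2 fold change of −0.77 (SE 0.248, edgeR adjusted p = 0.122). The DESeq2 adjusted p was 0.0483. Over 14 alternatives the log2 fold change stayed between −0.85 and −0.65, with adjusted p from 0.0318 to 0.591 and 2 of them under 0.05, from DESeq2 and from edgeR without sh-NC 1. None of its exonic bases in GENCODE 29 is shared with another gene, though the exons behind the deposited values are longer.

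The other hosts below 0 were SNHG31, SNHG26, SNHG16 and SNHG4. SNHG16 was at 193, 187 and 165 CPM in sh-NC and at 141, 159 and 167 CPM in sh-IGF2BP3, a log2 fold change of −0.22 (SE 0.179, edgeR adjusted p = 0.476), and sh-IGF2BP3 3 lay above sh-NC 3. SNHG26, the host of SNORD93, was at 19.1, 20.9 and 17.7 CPM in sh-NC and 17.0, 15.9 and 16.4 CPM in sh-IGF2BP3, so its groups did not overlap, with a log2 fold change of −0.23 (SE 0.211, edgeR adjusted p = 0.544). SNHG31 had 9, 36 and 14 counts in sh-NC and 9, 6 and 12 in sh-IGF2BP3, with a log2 fold change of −0.78 (edgeR adjusted p = 0.390) that was −0.19 without sh-NC 2. SNHG4, the host of SNORA74A, was at 75.7 ± 16.3 CPM in sh-NC and 71.9 ± 18.5 CPM in sh-IGF2BP3 with a log2 fold change of −0.07, and it turned above 0 under 4 alternatives.

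SNHG1, GAS5 and SNHG29, the hosts with most counts, had small differences between the groups. SNHG1 was at 204, 177 and 193 CPM in sh-NC and at 177, 262 and 236 CPM in sh-IGF2BP3, with a log2 fold change of 0.23 (SE 0.194, edgeR adjusted p = 0.495). GAS5 was at 192, 174 and 186 CPM in sh-NC and at 155, 251 and 197 CPM in sh-IGF2BP3, with a log2 fold change of 0.13 (SE 0.201, edgeR adjusted p = 0.728), and it was −0.06 without sh-IGF2BP3 2. SNHG29, the host of SNORD49A, SNORD49B and SNORD65, was at 268, 255 and 277 CPM in sh-NC and at 328, 372 and 247 CPM in sh-IGF2BP3, with a log2 fold change of 0.24 (SE 0.196, edgeR adjusted p = 0.479). For all 3 the sh-NC libraries lay close together and the sh-IGF2BP3 libraries spread around them. The SD among sh-IGF2BP3 libraries was 43.6 CPM for SNHG1, 48.3 CPM for GAS5 and 63.7 CPM for SNHG29, against 13.3, 9.09 and 11.3 CPM in sh-NC.

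Several less abundant C/D box hosts were higher on average in sh-IGF2BP3. SNHG6 (chromosome 8), the host of SNORD87, was at 50.9, 43.9 and 44.2 CPM in sh-NC and at 63.9, 92.9 and 49.6 CPM in sh-IGF2BP3, with a log2 fold change of 0.57 (SE 0.221, edgeR adjusted p = 0.158). SNHG32 (chromosome 6, 31834608 to 31839766, plus), the host of SNORD48 and SNORD52, was at 40.6, 25.1 and 28.7 CPM in sh-NC and at 51.0, 62.6 and 38.0 CPM in sh-IGF2BP3, with a log2 fold change of 0.68 (SE 0.231, edgeR adjusted p = 0.127). ZFAS1 (chromosome 20, 49278178 to 49299600, plus), the host of the SNORD12 family, was at 33.6, 25.2 and 22.5 CPM in sh-NC and at 38.7, 46.6 and 31.9 CPM in sh-IGF2BP3, with a log2 fold change of 0.53 (SE 0.218, edgeR adjusted p = 0.177). In each of these hosts sh-IGF2BP3 2 was the highest library, and 1 sh-IGF2BP3 library, replicate 3, lay below sh-NC 1. SNHG19, the host of SNORD60, went from 3.11 ± 0.860 to 5.52 ± 2.67 CPM, a log2 fold change of 0.83 (SE 0.368, edgeR adjusted p = 0.204). SNHG30, the host of SNORD7, went from 2.81 ± 0.441 to 3.65 ± 0.956 CPM, a log2 fold change of 0.38 (edgeR adjusted p = 0.521). Without sh-IGF2BP3 2 the log2 fold change was 0.30 for SNHG6 and 0.37 for SNHG19.

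Among the H/ACA box hosts, SNHG7 (chromosome 9, 136721366 to 136728184, minus), the host of SNORA17A and SNORA17B, had the lowest p of all members. It was at 40.0, 30.5 and 28.0 CPM in sh-NC and at 54.4, 54.4 and 43.4 CPM in sh-IGF2BP3, so every sh-IGF2BP3 library lay above every sh-NC library. The log2 fold change was 0.63 (SE 0.201, edgeR adjusted p = 0.122), but 0.01 with the GC and length trend of the longest transcript removed and 0.18 with that of the median-length transcript. SNHG15, the host of SNORA9, was at 34.4, 24.3 and 24.8 CPM in sh-NC and at 33.7, 47.4 and 38.2 CPM in sh-IGF2BP3, with a log2 fold change of 0.51 (edgeR adjusted p = 0.177). SNHG8, the host of SNORA24, was at 15.5, 12.9 and 8.63 CPM in sh-NC and at 20.1, 27.5 and 13.0 CPM in sh-IGF2BP3, with a log2 fold change of 0.71 (edgeR adjusted p = 0.173). The groups overlapped for SNHG15 and SNHG8, in both through the high level of sh-NC 1, and without sh-IGF2BP3 2 the log2 fold change of SNHG8 was 0.43. SNHG3, the host of SNORA73A and SNORA73B, went from 92.4 ± 12.3 to 105 ± 10.2 CPM, SNHG17 from 46.7 ± 10.5 to 53.9 ± 2.51 CPM and EPB41L4A-AS1, the host of SNORA13, from 16.7 ± 1.48 to 22.0 ± 4.65 CPM. Their log2 fold changes were 0.18, 0.21 and 0.39, and edgeR's adjusted p was 0.572, 0.555 and 0.314.

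SNHG12, which hosts both kinds (SNORA16A, SNORA44, SNORA61 and SNORD99), was at 41.7, 22.6 and 30.2 CPM in sh-NC and at 35.9, 69.5 and 46.5 CPM in sh-IGF2BP3. Its log2 fold change was 0.68 (SE 0.260, edgeR adjusted p = 0.153), and sh-NC 1 lay above sh-IGF2BP3 1. SNHG10, the host of SCARNA13, was at 6.72, 3.30 and 3.93 CPM in sh-NC and at 7.43, 11.2 and 6.02 CPM in sh-IGF2BP3, with a log2 fold change of 0.83 (SE 0.335, edgeR adjusted p = 0.171), and sh-IGF2BP3 3 lay below sh-NC 1. Without sh-IGF2BP3 2 the log2 fold change was 0.39 for SNHG12 and 0.54 for SNHG10. SNHG20 and SNHG21, which hold SCARNA16 and SCARNA15, had log2 fold changes of 0.24 and 0.21 with edgeR adjusted p of 0.652 and 0.819.

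Groups did not overlap for 4 members that were higher in sh-IGF2BP3 (SNHG7, SNHG9, SNHG11 and SNHG25, 15.4% of the 26, against 13.2% of all genes) and for 2 that were lower (SNHG5 and SNHG26, 7.69%, against 11.0%). These shares were near those of all genes. SNHG11 was at 4.85, 5.12 and 5.88 CPM in sh-NC and at 6.35, 7.52 and 6.87 CPM in sh-IGF2BP3. SNHG9, the host of SNORA78, was at 0.282, 0.537 and 0.409 CPM in sh-NC and at 0.686, 0.981 and 0.795 CPM in sh-IGF2BP3, with a log2 fold change of 0.96 (SE 0.493, edgeR adjusted p = 0.262). SNHG25, the host of SNORD104, had the highest log2 fold change of the members, 1.81 (SE 0.633, edgeR adjusted p = 0.136), from only 8, 5 and 1 counts in sh-NC and 21, 9 and 12 in sh-IGF2BP3.

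By the class of their annotated snoRNA rows, the 10 tested C/D box hosts had a median log2 fold change of 0.31, with 7 above 0. For the 10 tested H/ACA box hosts the median was 0.39, with 8 above 0. This split leaves out SNHG12 and SNHG25, which hold both kinds, SNHG10, SNHG20 and SNHG21, which hold scaRNAs, and GAS5, in which no row lay. All of these left-out hosts were above 0. Hosts of each class lay at both ends, from −0.77 for SNHG5 to 0.83 for SNHG19 among C/D box hosts and from −0.78 for SNHG31 to 0.96 for SNHG9 among H/ACA box hosts. By their start, the 6 tested hosts with a TOP start, whose letters are given above, had a median of 0.61 and ranged from −0.77 (SNHG5) to 0.83 (SNHG19), and the 16 without it had a median of 0.24 and ranged from −0.78 (SNHG31) to 0.83 (SNHG10). GAS5, named above among the hosts with a TOP motif, is counted in the 16 because its annotated start did not meet the definition. SNHG6, SNHG9, SNHG15 and SNHG25, which had no window, are in neither group, and all were above 0. SNHG5 and SNHG32 begin with nearly the same run of pyrimidines, and the log2 fold change was −0.77 for SNHG5 and 0.68 for SNHG32. The medians by class and by start still hold the trend with GC content that is described further on. With the GC and length trend of the longest transcript removed, the TOP hosts SNHG19, SNHG32 and SNHG12 were at 0.61, 0.57 and 0.39. ZFAS1, SNHG4 and SNHG5 were then at 0.24, 0.04 and −0.75. Whether hosts with and without a TOP start differ was not tested.

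**Figure D2:**
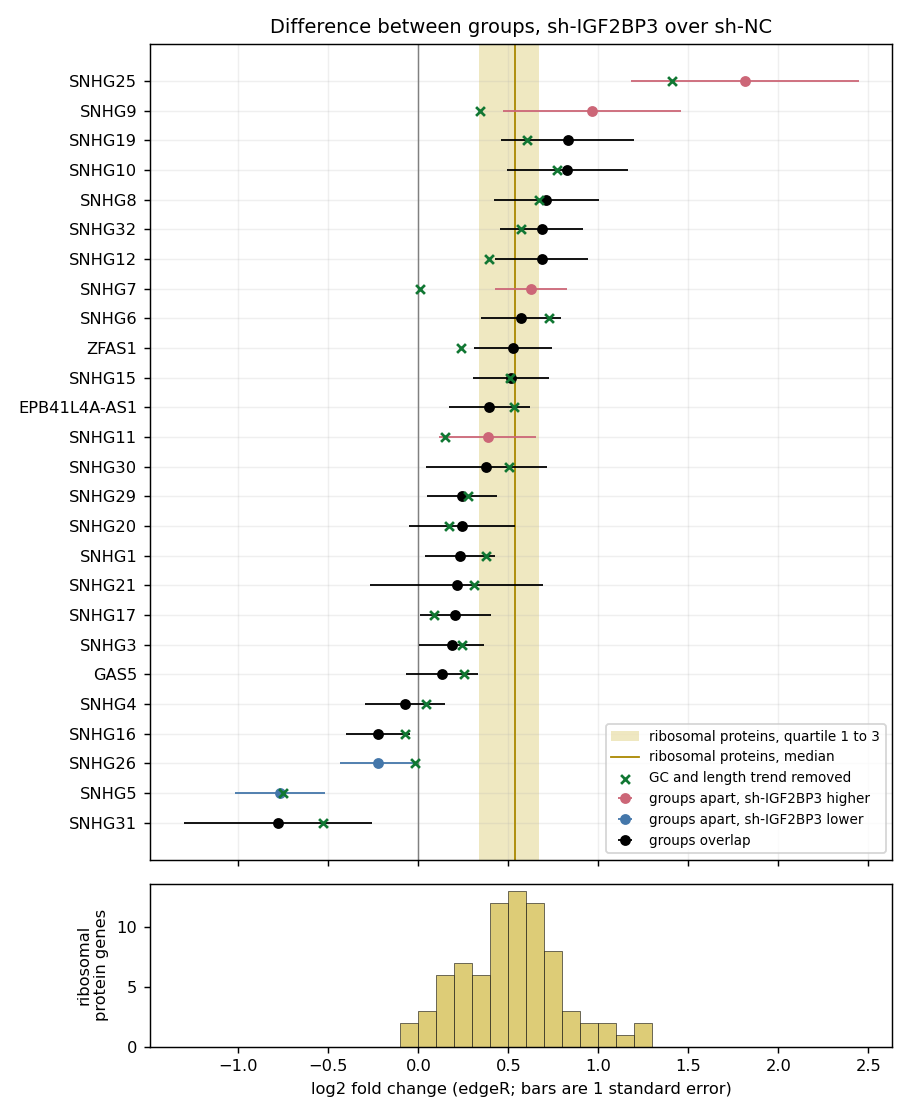
Log2 fold change, sh-IGF2BP3 over sh-NC, of the 26 tested hosts with bars of 1 standard error (edgeR), coloured by whether the groups overlap, with crosses for the value after removal of the GC and length trend and, in the lower panel, the distribution over 79 ribosomal protein genes. Of the hosts 17 lie below the ribosomal protein median of 0.54, and SNHG31, SNHG5, SNHG26, SNHG16 and SNHG4 lie below every ribosomal protein gene.

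The ribosomal protein genes, whose products make up the ribosome, were also higher on average in sh-IGF2BP3, and more uniformly than the hosts. Of 79 tested, 77 had a log2 fold change above 0, with a median of 0.54 and quartiles of 0.33 and 0.67, and 47 (59.5%) were higher at an unadjusted p under 0.05, against 13.6% of all genes. None passed the thresholds, and the groups did not overlap for 6 that were higher (7.59%, against 13.2% of all genes). The range ran from −0.06 for RPL4, which went from 1681 ± 95.4 to 1615 ± 65.2 CPM, to 1.29 for RPL17, which went from 17.3 ± 6.57 to 42.3 ± 18.4 CPM. FAU, which encodes RPS30, had the lowest p (edgeR adjusted p = 0.103) and went from 67.4 ± 27.9 to 160 ± 61.3 CPM. The members had a wider spread than this list, with quartiles of 0.19 and 0.67 around their median of 0.38. Against the ribosomal protein quartiles, 12 members lay below the first, 7 between them and 7 above the third. SNHG31, SNHG5, SNHG26, SNHG16 and SNHG4 lay below the lowest ribosomal protein gene, and SNHG25 lay above the highest. SNHG31 and SNHG25 had only 86 and 56 counts in total, with SE of 0.524 and 0.633. The part of low counts in the wider spread of the hosts was not tested. The median of the members minus that of the ribosomal proteins was −0.16, and it ranged from −0.35 without sh-IGF2BP3 3 to −0.03 without sh-NC 1.

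Library by library, hosts and ribosomal protein genes had the same order within each group, and the gap between the lists was wider in sh-IGF2BP3. Taking each gene relative to its 6-library mean, the median log2 CPM deviation of the members equalled 0.06, −0.23 and −0.36 in sh-NC 1, 2 and 3, against 0.08, 0.41 and 0.03 in sh-IGF2BP3 1, 2 and 3. For the ribosomal protein genes it equalled −0.06, −0.24 and −0.40 in sh-NC and 0.33, 0.59 and −0.17 in sh-IGF2BP3. In both lists sh-IGF2BP3 2 was the highest library, sh-NC 3 the lowest, and sh-NC 1 lay above an sh-IGF2BP3 library, so the groups overlapped. The members minus the ribosomal proteins gave 0.12, 0.00 and 0.04 in sh-NC and −0.26, −0.18 and 0.19 in sh-IGF2BP3, so the hosts lay below the ribosomal protein genes in sh-IGF2BP3 1 and 2 and above them in sh-IGF2BP3 3.

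**Figure D3:**
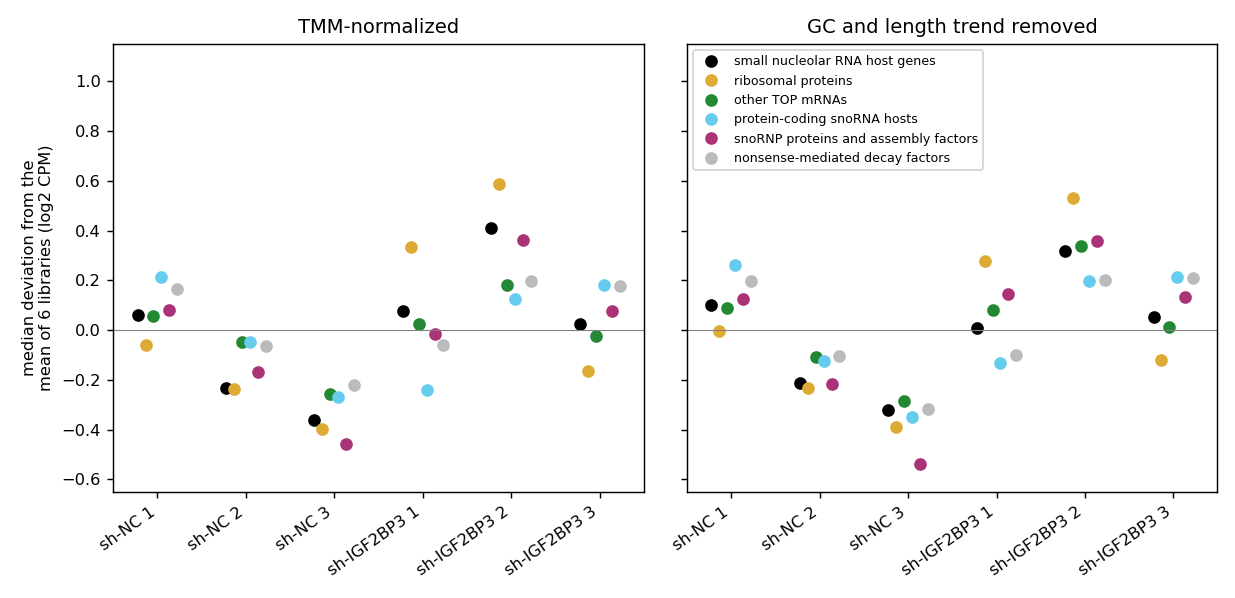
Median deviation (log2 CPM) of each gene list in each library, relative to the 6-library mean of every gene, without (left) and with (right) the trend with GC content and length removed. The snoRNA host genes (black) and ribosomal proteins (gold) are lowest in sh-NC 3 and highest in sh-IGF2BP3 2 in both panels.

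As a share of the ribosomal protein counts the hosts made up 446, 440.2 and 493 counts per 10000 in sh-NC 1, 2 and 3, against 338, 381 and 464 per 10000 in sh-IGF2BP3 1, 2 and 3, with means of 459.9 ± 28.98 and 394 ± 64.0 (SD, n = 3 each). The library sh-IGF2BP3 3 lay within the sh-NC range. When each library was scaled to its summed ribosomal protein counts, an alternative chosen after the data were seen, the median log2 fold change was −0.05 for the members and −0.43 for all genes (this scaling shifts all genes of a library alike, so the gap between the members and all genes adds nothing to the comparison above). On that scale edgeR called 0 members, and at an unadjusted p under 0.05 SNHG5, SNHG26 and SNHG16 were lower, against 25.9% of all genes, and SNHG25 was higher, against 1.09%.

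Some hosts kept a nearly constant ratio to the ribosomal protein genes and others did not. ZFAS1 came to 10.3, 8.83 and 8.79 counts per 10000 ribosomal protein counts in sh-NC and 9.44, 9.90 and 10.4 in sh-IGF2BP3. EPB41L4A-AS1 came to 5.64, 5.46 and 6.32 per 10000 in sh-NC and 5.40, 5.64 and 5.65 in sh-IGF2BP3. SNHG6 came to 15.6, 15.4 and 17.3 per 10000 in sh-NC and 15.6, 19.7 and 16.2 in sh-IGF2BP3. In these 3 the groups overlapped on this scale. SNHG5 came to 3.62, 4.36 and 6.14 per 10000 in sh-NC and 1.66, 1.85 and 2.60 in sh-IGF2BP3, with a log2 fold change of −1.21 (SE 0.338, edgeR adjusted p = 0.0651). SNHG16 came to 59.1, 65.6 and 64.4 per 10000 in sh-NC and 34.3, 33.8 and 54.7 in sh-IGF2BP3, with a log2 fold change of −0.62 (edgeR adjusted p = 0.158). For 5 of the 26 tested members every sh-IGF2BP3 library lay below every sh-NC library on this scale, a share near the 16.6% of all genes. They were SNHG5, SNHG16, SNHG26, SNHG29 and SNHG3. The margin was narrow for SNHG29, at 82.2, 89.4 and 108.2 in sh-NC and 79.96, 79.0 and 80.8 in sh-IGF2BP3, and for SNHG3, at 32.2, 32.0 and 31.5 in sh-NC and 25.2, 24.6 and 31.3 in sh-IGF2BP3.

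**Figure D4:**
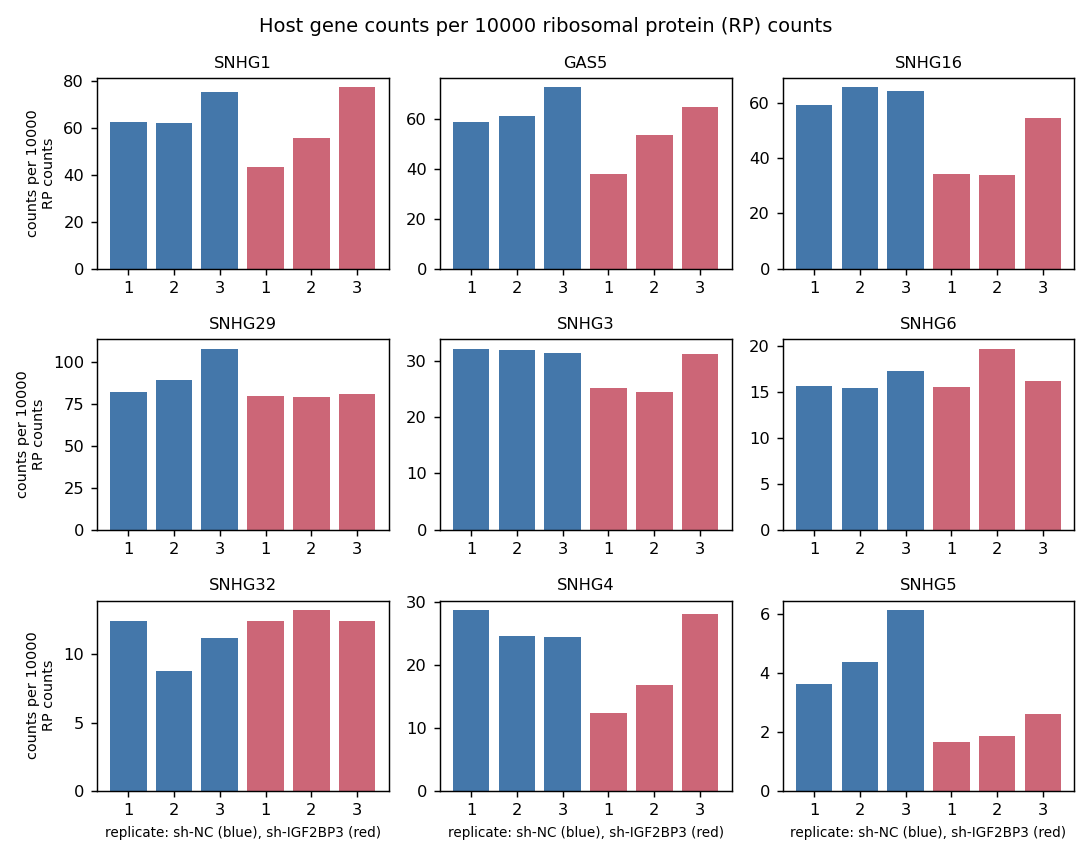
Counts of the 8 hosts with the highest FPKM and of SNHG5 per 10000 ribosomal protein counts in each library, with sh-NC in blue and sh-IGF2BP3 in red. SNHG5, SNHG16, SNHG29 and SNHG3 are lower in all 3 sh-IGF2BP3 libraries than in any sh-NC library, by a narrow margin for SNHG29 and SNHG3, and the other 5 hosts have overlapping groups. On this scale 16.6% of all genes were lower in this way.

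Other genes of the pathway are given from lists of related function, and their shares at an unadjusted p under 0.05 stand beside 13.6% higher and 8.54% lower among all genes. Of the 17 proteins that form or assemble snoRNPs, the particles of snoRNA and protein, 15 had a log2 fold change above 0, with a median of 0.29, and 6 (35.3%) were higher at an unadjusted p under 0.05. The highest was NHP2, a core protein of H/ACA particles, at 1.03, from 40.2 ± 13.8 to 81.8 ± 28.2 CPM, with overlapping groups. The lowest was ZNHIT6, a C/D particle assembly factor, at −0.14. The median deviation of the snoRNP list was 0.08, −0.17 and −0.46 in sh-NC 1, 2 and 3. It was −0.02, 0.36 and 0.08 in sh-IGF2BP3 1, 2 and 3, so the groups overlapped. Of 19 tested genes on a list of TOP mRNAs other than those of ribosomal proteins, 11 were above 0, with a median of 0.23. At an unadjusted p under 0.05, 4 (21.1%) were higher and 0 were lower. Groups did not overlap for 1 that was higher (5.26%, against 13.2% of all genes) and for 3 that were lower (15.8%, against 11.0%). Of the RefSeq starts of this list, 13 of 17 met the definition of a TOP start given above. The values ran from EEF1D at 0.90, an elongation factor subunit that went from 172.5 ± 70.3 to 322 ± 94.5 CPM, to PABPC1, the poly(A)-binding protein, at −0.32. For EEF1D the groups overlapped. Of 28 protein-coding genes that host snoRNAs in their introns, 16 were above 0, with a median of 0.02 and 2 (7.14%) at an unadjusted p under 0.05, from PPAN at 0.71 to CNOT1 at −0.41. Of 15 factors of nonsense-mediated decay, the pathway that degrades spliced host RNAs, 10 were above 0, with a median of 0.13. At an unadjusted p under 0.05, 2 of them (13.3%) were higher and 1 (6.67%) was lower. The highest was MAGOH, of the exon junction complex, at 0.61, and the lowest SMG1, the kinase of UPF1, at −0.48, from 471 ± 58.2 to 337 ± 77.5 CPM, with no overlap between groups. After removal of the GC and length trend SMG1 was at −0.06, CNOT1 at −0.14, PPAN at 0.15 and EEF1D at 0.53. NHP2 was then at 0.68, MAGOH at 0.68, ZNHIT6 at 0.22 and PABPC1 at −0.35. The medians were then 0.41 for the snoRNP proteins and 0.25 for the other TOP mRNAs. They were 0.15 for the protein-coding hosts and 0.13 for the decay factors. None of the genes in these lists passed the thresholds.

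The snoRNAs themselves were barely measured. Of the 144 rows inside the members, 132 were at 0 in all 6 libraries, 12 had a count and 9 had at least 10. No row lay inside GAS5, so its snoRNAs were not analysed here. The highest was SNORA73B in SNHG3, with 104, 107 and 75 counts in sh-NC and 45, 64 and 114 in sh-IGF2BP3, a log2 fold change of −0.09 (edgeR adjusted p = 0.898). SNORA71B in SNHG17 had 71, 110 and 45 counts in sh-NC and 29, 30 and 60 in sh-IGF2BP3, a log2 fold change of −0.63 (edgeR adjusted p = 0.346). SNORA74A in SNHG4 had 20, 31 and 18 counts in sh-NC and 6, 6 and 21 in sh-IGF2BP3. In these 3 rows sh-IGF2BP3 3 lay within or above the sh-NC range. SNORD93 in SNHG26 had 10, 30 and 15 counts in sh-NC and 7, 11 and 6 in sh-IGF2BP3, and its log2 fold change was −0.84 (edgeR adjusted p = 0.349). SNORA74D in SNHG4, SNORD12C in ZFAS1 and SNORD104 in SNHG25 had log2 fold changes of −0.15, 0.04 and 0.33, and SNORD99 in SNHG12 and SNORD12B in ZFAS1, with 37 and 12 counts in total, were not tested. Of the 7 tested, 5 were below 0 and 0 were below an unadjusted p of 0.05 in edgeR. Reads of unspliced host RNA can also be counted in these rows, and their part was not tested.

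The difference between the groups moved with GC content over the whole table. Across the 26 members the Spearman correlation of log2 fold change with the GC content of the longest transcript was 0.670, and across 16236 genes it was 0.611. These points share the same 6 libraries. The GC content of the tested members ran from 37.4% (SNHG31) to 66.5% (SNHG9), with a median of 48.1%, beside a median of 48.0% for the ribosomal protein genes. With each library's trend with GC content and length removed, the median log2 fold change was 0.29 for the members, 0.46 for the ribosomal proteins and 0.01 for all genes. At an unadjusted p under 0.05, 8 members were then higher (SNHG1, SNHG6, SNHG8, SNHG10, SNHG15, SNHG25, SNHG32 and EPB41L4A-AS1, against 6.78% of all genes), and SNHG5 was lower (against 3.60%). SNHG7, with 65.9% GC, went from 0.63 to 0.01, and SNHG26, with 39.2% GC, from −0.23 to −0.02. SNHG6 went from 0.57 to 0.73, SNHG1 from 0.23 to 0.38 and EPB41L4A-AS1 from 0.39 to 0.53. SNHG5, at 47.1% GC, stayed at −0.75. With a library left out as well, 1 to 12 members were higher at an unadjusted p under 0.05. The 1 of 27 came without sh-NC 2 (3.7%, against 3.53% of all genes) and the 12 of 27 without sh-NC 1 (44.4%, against 15.9%). With the principal or median-length transcript of each gene in place of the longest, also chosen after the data were seen, 6 members were higher (SNHG6, SNHG32, ZFAS1, SNHG8, SNHG10 and SNHG25, against 6.64% of all genes) and SNHG5 was lower (against 4.03%). The medians were then 0.33 for the members and 0.45 for the ribosomal proteins.

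**Figure D5:**
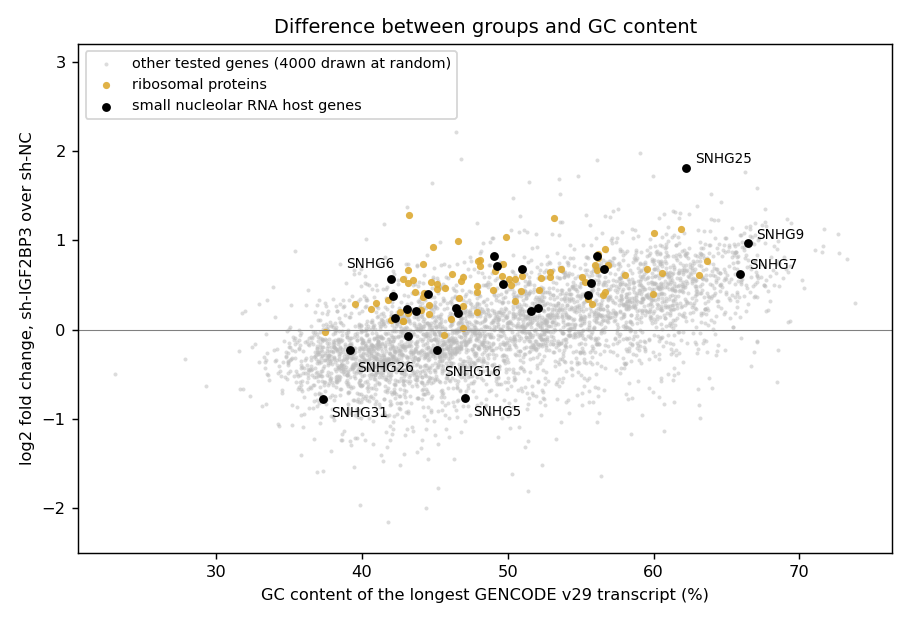
Log2 fold change, sh-IGF2BP3 over sh-NC, against the GC content of the longest GENCODE 29 transcript for the snoRNA host genes (black), the ribosomal protein genes (gold) and 4000 other tested genes drawn at random (grey). SNHG7, SNHG9 and SNHG25 lie at high GC content with values above 0, SNHG31 and SNHG26 at low GC content with values below 0, and SNHG5, at 47.1% GC, lies below 0.

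Some hosts share exonic sequence with a neighbour, and whether reads were assigned by strand is not given in the sources used here, so reads of a host and of its antisense partner cannot be told apart. The share of exonic bases that overlap exons on the opposite strand in GENCODE 29 was 49.6% for EPB41L4A-AS1 (with EPB41L4A), 30.6% for SNHG16, 29.3% for SNHG6 (with MCMDC2), 25.2% for SNHG7 (with FAM69B) and 20.1% for SNHG10 (with GLRX5). On the same strand SNHG21 shared 72.9%, SNHG32 23.2% and SNHG4 14.0% (with MATR3), and these values are uncertain. SNHG1, SNHG5, SNHG8, SNHG15, SNHG17 and SNHG26 shared no exonic base with another gene in GENCODE 29. The lengths behind the deposited FPKM values exceed those exons for several hosts, SNHG8, SNHG5, SNHG26 and SNHG17 among them, so overlap in the exons that were counted is not known.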

How the data were processed

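Total RNA was extracted with Trizol and made into libraries by a TruSeq RNA protocol. The authors deposited raw counts for 62710 genes of GRCh38, and FPKM values, in which the count of a gene is set against 1 fixed length and the total of its library. The submitters' processing notes name CASAVA and GRCh38, while the aligner, the counting tool and the use of strand are not given in the sources used here. All 6 count columns were used, and 0 columns of per-sample values were left aside.

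The raw counts were tested with edgeR 4.0.16 in R 4.3.3 (filterByExpr, TMM, quasi-likelihood test, Benjamini-Hochberg adjustment over all genes tested), with no further term. The study's methods give the thresholds of 1.5 for the fold change and 0.05 for the adjusted p. Log2 CPM used a prior count of 2. With 3 libraries a group, an exact test of a single value cannot go below p = 0.1, so none was run. The edgeR fit was tested on counts simulated for this comparison over 16414 genes, where it recovered 75.8% of 95 genes changed by 2 fold and 99% of 97 changed by 3 fold, and called 5 unchanged genes. The simulation gave every gene the same dispersion and held no trend with GC content. Recovery in these libraries may therefore be lower. Each library's trend with GC content and transcript length (GENCODE 29) was fitted with splines of 5 degrees of freedom. Start letters came from RefSeq windows on GRCh38.p14, of 250 bases before and 50 after each start, and no genome sequence was used. No pair of libraries of a group agreed within sampling noise (chi-square per degree of freedom of 18.96 to 60.6), so each library counted as 1 sample.

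The members and the gene lists were chosen with earlier results of these data known. By the naming rule every member is named, tested members with values. Of the other lists only the genes with the largest log2 fold change in each direction and the lowest p are named, with IGF2BP3 and the snoRNA rows with at least 10 counts. The alternatives were DESeq2 1.42.0, RLE normalization, no filter, the replicate number as a block, a minimum of 10 counts in each library, the GC and length trend removed with and without the block, each library left out, and limma 3.58.1 on log2(FPKM + 1) and log2(FPKM + 0.1) for genes with a mean of at least 1 FPKM. Scaling to ribosomal protein counts, the trend with each library left out and the trend with other transcripts were added after the data were seen. Markers of other cell types were read from short lists. The exon overlap of ZFAS1 is not reported here.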

Additional observations from a re-analysis of the deposited data

How the results depend on the processing

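Of 406 values of single members under the alternatives, 387 kept their direction and their side of an adjusted p of 0.05, 10 passed it, and 9, in 4 members, turned direction. With each library left out, the log2 fold change was −0.056 to 0.29 for GAS5 (below 0 without sh-IGF2BP3 2), −0.13 to 0.79 for SNHG21 (below 0 without sh-NC 2, sh-NC 3 or sh-IGF2BP3 2) and −0.24 to 0.13 for SNHG4 (above 0 without sh-NC 1 or sh-IGF2BP3 1). SNHG4 was also 0.041 with the GC and length trend removed and 0.056 with the trend removed and the block. SNHG17 was −0.25 with the trend of the principal or median-length transcript removed.

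edgeR called 0 genes, while 2283 were higher and 1431 lower at an unadjusted p under 0.05. The calls became 699 with DESeq2, 837 with no filter and 1 each with RLE normalization, at least 10 counts in every library and limma on log2(FPKM + 1). They were 0 to 2724 with each library left out, with the most, 2724, when sh-NC 1 was left out and 228 when sh-IGF2BP3 3 was. The members called were 1 with DESeq2 and 0 to 9 with each library left out. The members higher at an unadjusted p under 0.05 were 10 in the analysis as reported. They were 4 with limma under either pseudocount (17.4%, beside 12.5% of all genes) and 6 with the trend of the principal or median-length transcript removed (23.1%, beside 6.64%). With each library left out they were 2 to 10 (2 when sh-IGF2BP3 2 was left out, a share of 7.69% beside 7.53% of all genes, 3 for sh-NC 2 and 4 for sh-NC 3). With the trend removed and each library left out they were 1 to 12. The 1 came without sh-NC 2 (3.7%, beside 3.53% of all genes) and the 12 without sh-NC 1 (44.4%, beside 15.9%). The lower members were 1 with each library left out and 0 with limma, where SNHG5 was not tested, since its mean lay under 1 FPKM. The median log2 fold change was 0.27 to 0.57 for the members, 0.33 to 0.73 for the ribosomal proteins and −0.35 to −0.029 for their difference with each library left out. The cause of the other differences was not tested.

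The labels do not say whether same-numbered libraries were prepared together. Their deviations correlated at −0.28, −0.19 and −0.04, which cannot decide it. The replicate block gave 0 genes called, 9 members higher and a difference of −0.13, and it changed no member's call. Depth limits SNHG25, SNHG31, SNHG9 and the snoRNA rows most.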
